A study of Homo sapiens with 6 samples.

Results

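The mRNA levels of 38 genes of homologous recombination and the Fanconi anemia pathway were examined in A549 cells with and without the MIR21 gene. The genes were taken from a list of 39 symbols, in which MRE11A is an older symbol of MRE11, and were found by symbol among the 58174 genes of the deposited table. A549, a human cancer line established from lung adenocarcinoma, was used throughout. Parental A549 cells (Ctrl, 3 libraries) were compared with cells carrying a CRISPR/Cas9 deletion of MIR21 (MIR21-KO, 3 libraries), all harvested 48 h after seeding and sequenced as polyA RNA. MIR21-KO cells were grown from single sorted cells that had received Cas9 and paired guide RNAs. Ctrl cells were the parental population and are not described as having received either. It is not stated how many clones the 3 MIR21-KO libraries represent, so effects of the deletion and of cloning cannot be told apart. Values are given as FPKM, that is fragments scaled to gene length and library size.

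Homologous recombination repairs a broken chromosome by copying the intact sister chromatid and is therefore used mainly in S and G2 phase. Broken ends are trimmed to single strands, BRCA2 with PALB2 prepares these strands to invade the intact copy, and helicases and nucleases later separate the joined molecules. The Fanconi anemia pathway removes crosslinks between DNA strands: its core complex attaches ubiquitin to FANCD2 and FANCI, which recruit nucleases and pass the resulting break to recombination.

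Libraries held 10631667 to 14345209 recovered reads, and the 38 genes took between 33 and 2738 reads each per library. MIR21 itself was listed at 0 FPKM in every library, and since the mature miRNA has no polyA tail this bears on the labels in neither direction. Of the epithelial markers, KRT8 and KRT18 were abundant in both groups, at a mean of 484 and 673 FPKM in Ctrl, whereas EPCAM averaged 1.19 FPKM there. The fibroblast marker COL1A2 and the leukocyte marker CD3E were at 0 throughout, while COL1A1, LUM and CD14 of the same lists averaged 3.41, 2.11 and 3.46 FPKM in Ctrl and 3.91, 1.88 and 4.31 FPKM in MIR21-KO. Correlations of log2 values across genes were 0.950 to 0.959 within Ctrl, 0.933 to 0.957 within MIR21-KO and 0.896 to 0.912 between the groups. The labels do not say whether libraries of a group came from separate cultures, so p-values measure the spread between these samples.

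Sequences are shown first for the deleted miRNA and for E2F factors, which bind promoters of many S-phase genes. Mature miR-21-5p is encoded at chr17:59841273-59841294 on the plus strand (GRCh38.p14, RefSeq), and its seed (bases 2 to 8) is in capitals.
hsa-miR-21-5p: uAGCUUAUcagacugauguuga
Of the 38 genes, 8 (21.1%) held a match of at least 7 bases to this seed in their longest annotated 3′ UTR (GENCODE 29), against 14.4% of 11644 protein-coding genes tested. These shares were not matched for 3′ UTR length, which reached 8745 bases for RAD51D and 3594 bases for ATM. RAD51AP1 was the gene with an 8mer, at position 408 of a 3′ UTR of 1055 bases, and RAD51C, FANCI, FANCM, BRIP1, ATM, RAD51D and RAD51B had a 7mer. Of these genes, FANCM and BRIP1 had log2 fold changes of -0.72 and -0.33 without a call. ATM, RAD51D and RAD51B had positive values of 0.07, 0.26 and 0.39, also without a call. A relation between sites and fold changes was not tested. A miRNA inhibits the expression of its target mRNAs, by degradation, blocked translation or both. The sites of RAD51AP1, RAD51C and FANCI, the genes with a site that fell upon MIR21 deletion, are shown with the matched bases in capitals. Those of FANCM, BRIP1, ATM, RAD51D and RAD51B are not shown.
RAD51AP1 3′ UTR: atttctgaaatcttATAAGCTActtaag
RAD51C 3′ UTR: tccagaataggttgATAAGCTcacaatc
FANCI 3′ UTR: attttaaatagaaaATAAGCTttctgat
A match of letters is a description and does not show that a site is bound.

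Promoters were searched from 250 bases before to 50 bases after each listed start of transcription (RefSeq, GRCh38.p14), with 35116 entries for 27305 genes. A gene was counted if any of its entries held the motif, so genes with several starts had more chances of a match. At least 1 entry was present for 35 of the 38 genes. FANCI, NBN and RAD54B had none. An E2F motif was taken as TTTGGCGC, TTTGCCGC, TTTCGCGC or TTTCCCGC on either strand. It was found for 4 of the 35 genes (11.4%), against 3.99% of all 27305 genes and 6.77% of genes tested. These 4 genes were FANCD2, XRCC2, FANCA and FANCC, of which the first 3 fell. With TTTGGCGC and TTTCGCGC alone the count was 1 of 35 (2.86%, FANCC), against 2.46% of genes tested. FANCC, which was not called (log2 fold change -0.30), held the motif at positions -172 and -46 relative to the start of transcription. A relation between motif and fold change was not tested. Windows of the 3 genes that fell, and not those of FANCC, are shown along the strand of the gene. The motif, read here from its other strand, is in capitals.
FANCD2, chr3:10026424-10026453, plus strand: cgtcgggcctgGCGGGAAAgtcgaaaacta
XRCC2, chr7:152676102-152676131, minus strand: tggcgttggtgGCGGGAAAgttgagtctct
FANCA, chr16:89816801-89816830, minus strand: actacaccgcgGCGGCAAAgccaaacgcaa
FANCD2 and XRCC2 share the same letters near the start of transcription, whereas the motif of FANCA lies further upstream. The CHR element TTTGAA, known from genes of G2 and mitosis, was present for 4 of 35 genes (11.4%), against 18.2% of all genes and 13.3% of genes tested. CCAAT was present for 16 (45.7%), against 39.7% of all genes and 43.1% of genes tested.

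All 38 genes passed the minimum mean of 0.5 FPKM that was set for testing. Upon MIR21 deletion 12 of them fell and 0 rose at an FDR under 0.01 (limma, two-sided, adjusted over 16006 genes), where 8.38% of all genes tested fell and 7.66% rose. The median log2 fold change of the 38 genes was -0.51, against -0.02 over all genes tested, and it ranged from -1.11 for FANCB to 0.39 for RAD51B. At an unadjusted p under 0.05 limma put 23 of the 38 genes lower and 3 higher, where 22.5% of all genes tested were lower and 20.7% higher. Voom on recovered reads called 16 of the genes lower (11.5% of all genes tested) and 0 higher. The 3 MIR21-KO values lay below the 3 Ctrl values for 24 genes and above them for 5, where 25.2% of all genes tested were separated downwards and 22.8% upwards. For the remaining 9 genes the groups overlapped. Together the 38 genes took 0.156% to 0.166% of the reads in Ctrl and 0.105% to 0.127% in MIR21-KO.

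**Figure D1:**
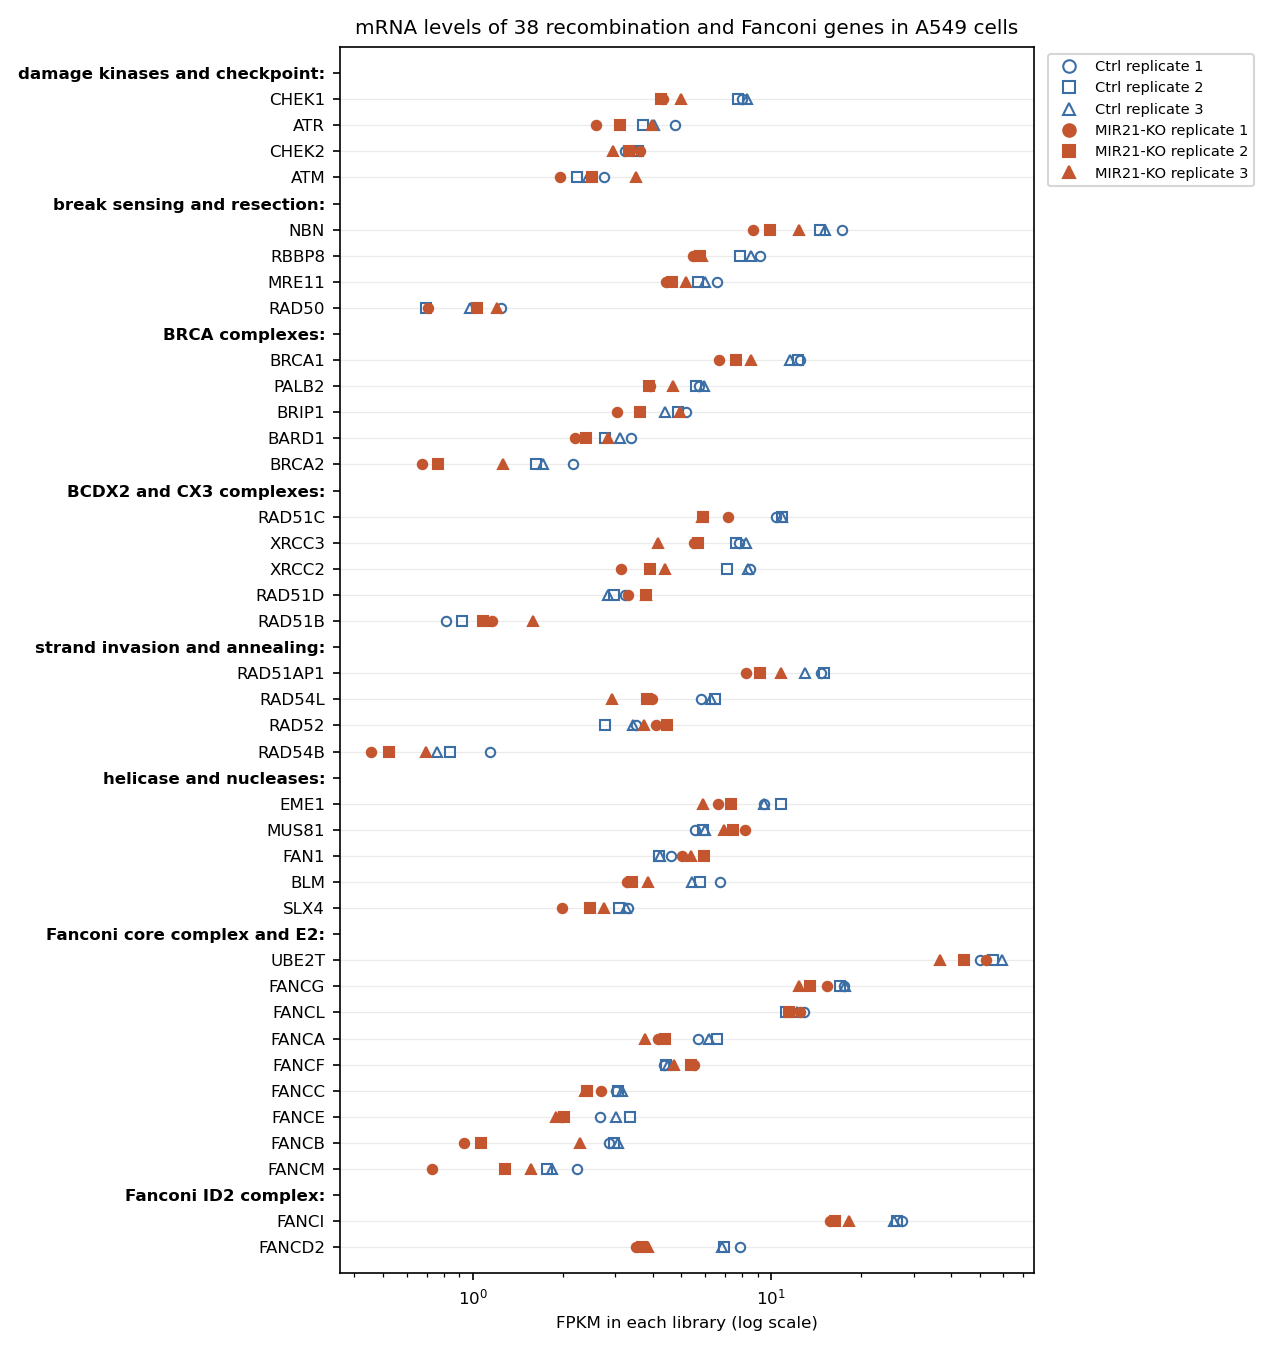
FPKM of each of the 38 genes in each library (log scale), ordered by role, with open blue symbols for the 3 Ctrl and filled orange symbols for the 3 MIR21-KO libraries. The MIR21-KO symbols lie to the left of all Ctrl symbols in 24 genes and to the right in 5, and UBE2T has the highest and RAD54B the lowest mean.

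**Figure D2:**
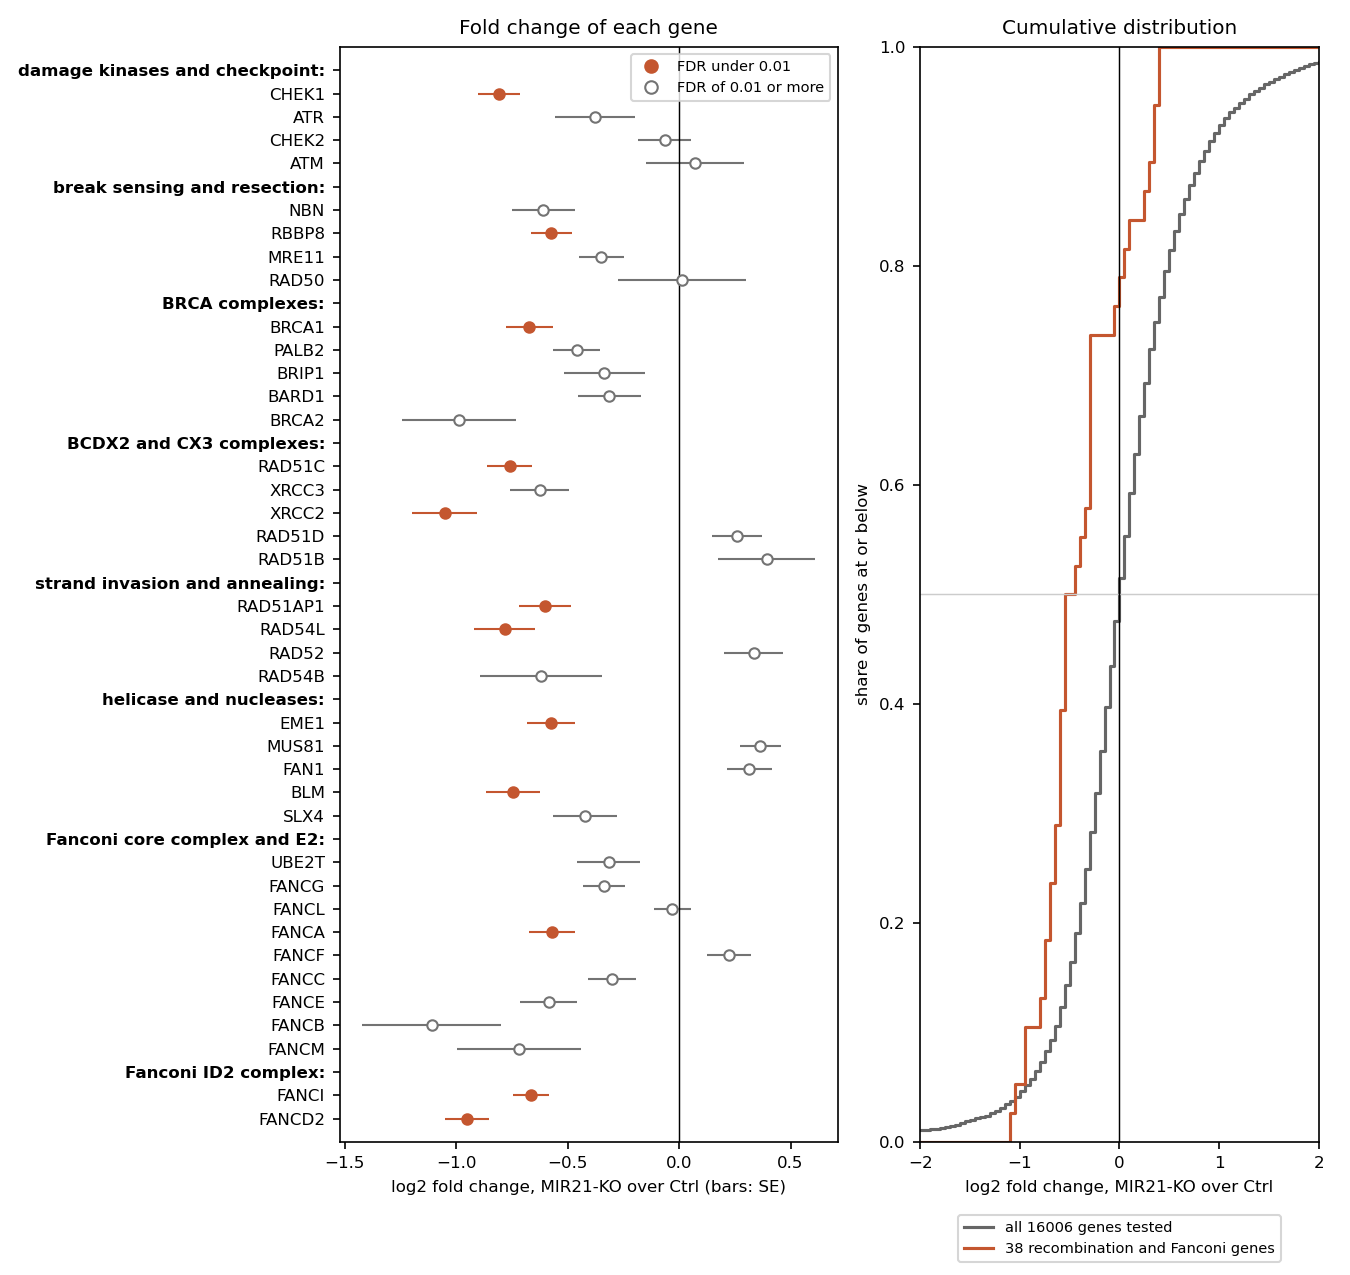
Left, log2 fold change of each gene (MIR21-KO over Ctrl, bars show the SE of the limma fit), filled where the FDR was under 0.01; right, the share of genes at or below a given log2 fold change for the 38 genes and for all 16006 genes tested. The 12 filled points are all to the left of 0. The curve of the 38 genes is level at 0.5 between -0.55 and -0.50, an interval that holds the median of -0.51.

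The Fanconi ID2 complex, whose 2 subunits FANCD2 and FANCI are clamped onto DNA once ubiquitinated, had both members called. In the same fit 8.38% of all genes tested fell. FANCD2 (chr3:10026414-10101930) was measured at 7.89, 6.94 and 6.85 FPKM in Ctrl replicates 1 to 3 and at 3.51, 3.68 and 3.86 FPKM in MIR21-KO replicates 1 to 3. All MIR21-KO values were thus close together and clear of Ctrl, and the Ctrl mean was 1.96 times that of MIR21-KO (log2 fold change -0.95, SE 0.10, limma FDR 0.000861). FANCI (chr15:89243949-89317261) was at 27.4, 26.5 and 25.8 FPKM in Ctrl and at 15.7, 16.4 and 18.2 FPKM in MIR21-KO. The groups of FANCI were likewise apart, at a log2 fold change of -0.66 (SE 0.08, limma FDR 0.00157). On the same per-length scale FANCI was the more abundant mRNA of the complex, and the ratio of FANCD2 to FANCI within a library was 0.272 ± 0.014 in Ctrl and 0.220 ± 0.007 in MIR21-KO (SD over 3 libraries; exact permutation p = 0.1, the smallest this design allows).

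Of the 9 genes of the Fanconi core complex and its ubiquitin-conjugating enzyme, 1 fell, where 8.38% of all genes tested fell. That count is near the share over all genes, and the median log2 fold change of the 9 genes was -0.34. FANCA (chr16:89737549-89816657), a scaffold subunit, was at 5.67, 6.58 and 6.19 FPKM in Ctrl and at 4.17, 4.40 and 3.76 FPKM in MIR21-KO. Its groups did not overlap (log2 fold change -0.57, SE 0.10, limma FDR 0.00758), and 23.6% of its exonic bases lie opposite ZNF276, which averaged 3.98 FPKM. The most abundant of all 38 mRNAs was UBE2T, the E2 enzyme that works with the ligase FANCL. UBE2T was at 50.1, 55.4 and 59.6 FPKM in Ctrl and at 52.5, 44.4 and 36.7 FPKM in MIR21-KO, so that MIR21-KO replicate 1 lay within the Ctrl range (log2 fold change -0.32, limma FDR 0.136). FANCL itself, the ubiquitin ligase, was at 12.1 ± 0.8 FPKM in Ctrl and 11.8 ± 0.6 FPKM in MIR21-KO (SD over 3 libraries), with overlapping groups. Of its exonic bases, 18.7% lie opposite VRK2, which averaged 11.5 FPKM. FANCB had the lowest log2 fold change of all 38 genes (-1.11), but it was not called (limma FDR 0.035), since MIR21-KO replicate 3 stood at 2.28 FPKM while replicates 1 and 2 stood at 0.936 and 1.07 FPKM. FANCM, the translocase that anchors the core complex, had a similar spread (log2 fold change -0.72, limma FDR 0.0944). FANCE, FANCG and FANCC had log2 fold changes of -0.58, -0.34 and -0.30 with groups apart and no call, whereas FANCF lay higher in every MIR21-KO library (0.22, limma FDR 0.125).

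The genes of the BCDX2 and CX3 complexes, which assist strand exchange, had fold changes of both signs. XRCC2 (chr7:152644779-152676165) was at 8.51, 7.11 and 8.33 FPKM in Ctrl and at 3.15, 3.92 and 4.40 FPKM in MIR21-KO. Among the 12 called genes XRCC2 had the largest change, with a Ctrl mean 2.09 times that of MIR21-KO (log2 fold change -1.05, SE 0.15, limma FDR 0.00273). RAD51C (chr17:58692573-58735611) was at 10.4, 10.9 and 10.9 FPKM in Ctrl and at 7.16, 5.91 and 5.87 FPKM in MIR21-KO, again without overlap (log2 fold change -0.76, SE 0.10, limma FDR 0.00230). XRCC3 had a log2 fold change of -0.62 and missed the threshold at a limma FDR of 0.0132, and 76.7% of its exonic bases lie opposite KLC1 (2.37 FPKM). RAD51D and RAD51B had positive log2 fold changes of 0.26 and 0.39 (limma FDR 0.126 and 0.212), and RAD51B, at 0.941 FPKM in Ctrl, was among the scarcest of the genes. RAD51D and XRCC2 are direct partners in the BCDX2 complex, and their ratio within a library was 0.380 ± 0.039 in Ctrl and 0.961 ± 0.092 in MIR21-KO (SD over 3 libraries). The ratio of RAD51B to RAD51C, which also pair in that complex, was 0.0878 ± 0.0116 in Ctrl and 0.205 ± 0.058 in MIR21-KO.

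Of the 4 genes of strand invasion and annealing, 2 fell, where 8.38% of all genes tested fell. RAD54L (chr1:46247688-46278473), a motor protein that helps a broken end to invade the intact duplex, was at 5.80, 6.48 and 6.26 FPKM in Ctrl and at 3.98, 3.84 and 2.93 FPKM in MIR21-KO. It fell by 0.78 on the log2 scale (SE 0.14, limma FDR 0.00656), with 25.1% of its exonic bases opposite LRRC41 (8.51 FPKM). RAD51AP1, which stimulates the same step and holds the 8mer shown above, fell by 0.60 on the log2 scale at a limma FDR of 0.00989, just inside the threshold. RAD54B was the scarcest gene, with 33 to 77 reads per library, and was not called (log2 fold change -0.62), and 59.1% of its exonic bases are shared with FSBP on the same strand. RAD52, which anneals single strands, lay higher in every MIR21-KO library (0.33, limma FDR 0.0994).

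BLM (chr15:90717327-90816165), the helicase that dissolves joined molecules, was at 6.73, 5.75 and 5.41 FPKM in Ctrl and at 3.27, 3.40 and 3.86 FPKM in MIR21-KO. The groups were apart, at a log2 fold change of -0.74 (SE 0.12, limma FDR 0.00484). The nuclease MUS81 and its partner EME1 differed: EME1 fell by 0.58 on the log2 scale (limma FDR 0.00801), while MUS81 had a log2 fold change of 0.36 with groups apart and an FDR of 0.0244. The MUS81 to EME1 ratio within a library was 0.586, 0.549 and 0.633 in Ctrl and 1.23, 1.02 and 1.17 in MIR21-KO. Per length, EME1 was thus the more abundant mRNA in every Ctrl library and MUS81 in every MIR21-KO library. Both genes lie opposite highly expressed neighbours, MUS81 with 13.9% of its exonic bases opposite CFL1 (276 FPKM) and EME1 with 16.4% opposite LRRC59 (70.2 FPKM). SLX4, a scaffold for such nucleases, and FAN1, a nuclease of crosslink repair, had log2 fold changes of -0.42 and 0.32 with groups apart and no call. FAN1 has 24.3% of its exonic bases opposite MTMR10 (2.25 FPKM).

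**Figure D3:**
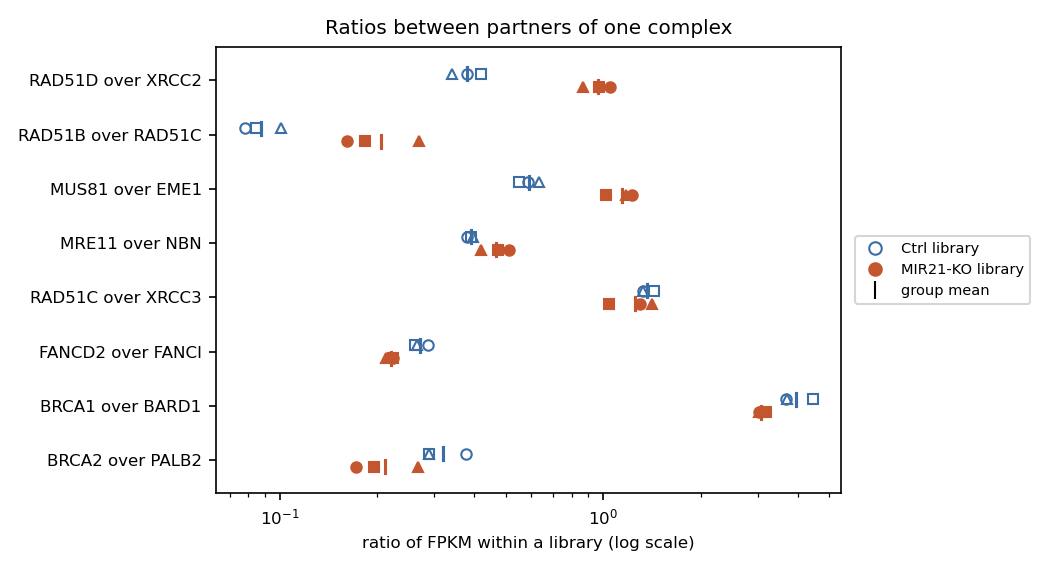
Ratio of FPKM between 2 partners of a complex in each library (log scale), with open blue symbols for Ctrl, filled orange symbols for MIR21-KO and a bar at each group mean. RAD51D over XRCC2, RAD51B over RAD51C and MUS81 over EME1 lie to the right in all MIR21-KO libraries, and RAD51C over XRCC3 is the pair of 8 whose groups overlap.

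In all, 8 such ratios were compared, for pairs chosen with the values known, and 7 separated the groups at an exact permutation p of 0.1 (0.114 adjusted over the 8 pairs), the smallest that 3 against 3 libraries can give. The test could not have given a smaller p, so it decides nothing about these pairs. Of all single genes tested, 48.1% had groups apart, and no such share was counted for ratios of other gene pairs. The mean ratio of BRCA1 to BARD1 was 3.95 in Ctrl and 3.08 in MIR21-KO, that of BRCA2 to PALB2 was 0.319 and 0.212, and that of MRE11 to NBN was 0.389 and 0.467.

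BRCA1 (chr17:43044295-43170245), which with BARD1 forms a ubiquitin ligase that promotes resection, was at 12.5, 12.3 and 11.6 FPKM in Ctrl and at 6.68, 7.62 and 8.57 FPKM in MIR21-KO. It fell by 0.67 on the log2 scale (SE 0.11, limma FDR 0.00451). BRCA2 had a larger log2 fold change of -0.99 and groups apart, but was not called (limma FDR 0.0266). As with FANCB, the value of MIR21-KO replicate 3 stood nearer to Ctrl, at 1.26 FPKM against 0.676 and 0.765 FPKM in replicates 1 and 2 and 1.83 ± 0.29 FPKM in Ctrl (SD, n = 3). PALB2 also had its groups apart (log2 fold change -0.46, limma FDR 0.0173), whereas BARD1 (-0.31) and the helicase BRIP1 (-0.33) overlapped.

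Among the genes of break sensing and resection 1 of 4 fell, where 8.38% of all genes tested fell. RBBP8 (chr18:22798261-23026488), which encodes the resection factor CtIP, was at 9.18, 7.84 and 8.57 FPKM in Ctrl and at 5.48, 5.76 and 5.85 FPKM in MIR21-KO (log2 fold change -0.57, SE 0.09, limma FDR 0.00433). The 3 subunits of the MRN sensor differed: NBN had a log2 fold change of -0.61 (limma FDR 0.0183), MRE11 of -0.35 (limma FDR 0.0409) and RAD50 of 0.01. RAD50 was measured at 0.971 ± 0.272 FPKM in Ctrl (SD, n = 3), well under NBN at 15.7 ± 1.4 FPKM, and 79.7% of its exonic bases are shared with the annotated protein-coding gene AC116366.3 on the same strand. How reads on shared bases were counted is not stated, so the level of RAD50 is uncertain.

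Of the kinases, CHEK1 (chr11:125625136-125676255), the checkpoint kinase of stalled forks, was at 7.98, 7.74 and 8.32 FPKM in Ctrl and at 4.34, 4.28 and 5.00 FPKM in MIR21-KO. Its groups were well apart (log2 fold change -0.81, SE 0.09, limma FDR 0.00142). The other 3 kinases overlapped between the groups: ATR, which activates CHEK1, had a log2 fold change of -0.38, CHEK2 of -0.06 and ATM, which signals breaks, of 0.07. Among the 38 genes, 24 share exonic bases with another annotated gene, and 15 of them with a gene of at least 1 FPKM. The libraries were strand-specific per the labels, but whether strand was used in counting is not stated.

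The MIR21-KO libraries were not equally low, and their order differed between genes. Of the 38 genes, 21, 4 and 13 had their lowest MIR21-KO value in replicates 1, 2 and 3. The median over the 38 genes of the log2 ratio to the Ctrl mean was -0.57, -0.45 and -0.35 in MIR21-KO replicates 1 to 3, against 0.05, -0.04 and 0.01 in Ctrl replicates 1 to 3. Between 26 and 28 of the 38 genes lay below every Ctrl value in each MIR21-KO library. The share of all genes tested that did so in a single library was not counted. Nor was the order of the MIR21-KO libraries over all genes tested, so neither count can be called particular to the 38 genes. In all 3 MIR21-KO libraries at once 24 of the 38 genes lay below every Ctrl value, against 25.2% of all genes tested. With each library left out in turn, FANCD2 was called in all 6 fits and no other gene was. Leaving out MIR21-KO replicate 3 gave 17 genes that fell, adding BRCA2, FANCB, NBN, PALB2 and XRCC3 to the 12 (11.3% of all genes tested fell in that fit). Leaving out MIR21-KO replicate 1 gave 8 (7.68% of all genes tested), which were 7 of the 12 and FANCG. Without Ctrl replicates 1, 2 or 3 or MIR21-KO replicate 2 the counts were 1, 3, 1 and 1, all among the 12 (2.3% to 2.5% of all genes tested). The log2 fold changes of the 12 genes were between -1.16 and -0.50 in all 6 fits.

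**Figure D4:**
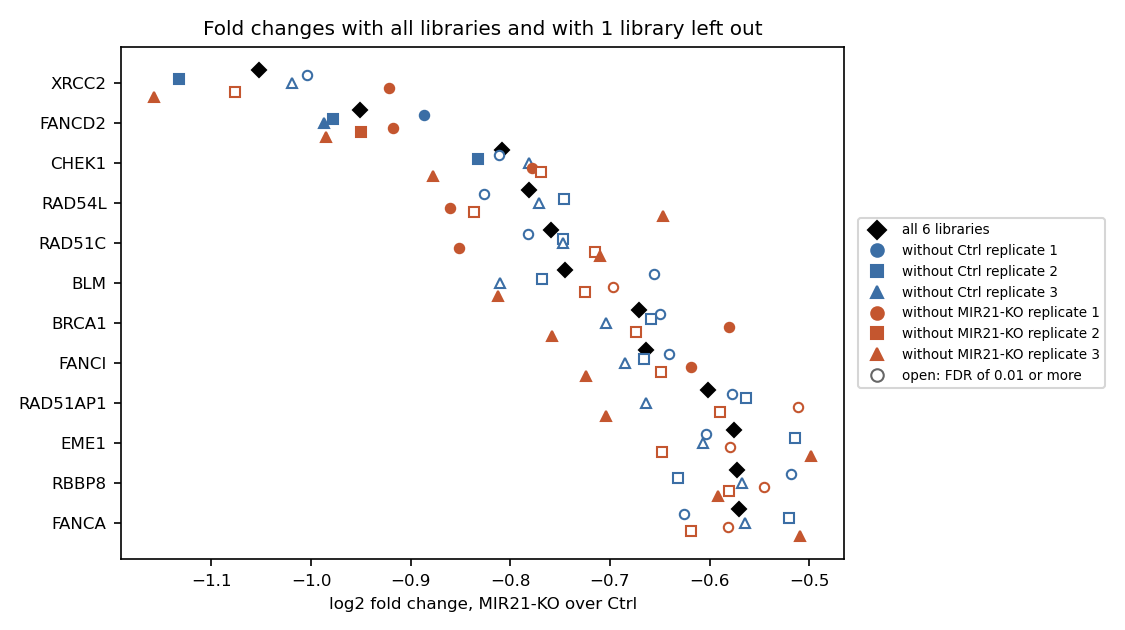
Log2 fold change (MIR21-KO over Ctrl) of the 12 called genes with all 6 libraries (black diamonds) and with 1 library left out (blue for Ctrl, orange for MIR21-KO), open where the limma FDR was 0.01 or more. All values are below 0, and FANCD2 is filled in all 6 fits.

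Other genes of the same pathways were counted in the same fit, in which 8.38% of all genes tested fell and 7.66% rose. The median log2 fold change over all genes tested was -0.02. Of 63 listed partners 59 were tested, and 10 fell and 0 rose, with a median log2 fold change of -0.22. The 3 with the smallest p were TIMELESS and TIPIN, which together protect the replication fork, and RFWD3, a ubiquitin ligase of crosslink repair, with log2 fold changes of -1.01, -0.93 and -0.80 (limma FDR 0.000204, 0.000774 and 0.000951). Of 20 genes of end joining, the route that ligates breaks without a template, 19 were tested, and 4 fell and 0 rose, with a median of -0.24. POLQ, the polymerase of microhomology-mediated joining, had a log2 fold change of -1.05, XRCC4 of -0.62 and PARP2 of -0.44 (limma FDR 0.00330, 0.00425 and 0.00682). No test was made between these lists and the 38 genes.

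Markers of cycling cells were read beside these genes. All 6 of MKI67, TOP2A, PCNA, MCM2, CCNB1 and CCNA2 were lower in every MIR21-KO library than in any Ctrl library, as were 25.2% of all genes tested. MCM2, CCNB1 and CCNA2 fell (log2 fold changes -1.13, -1.13 and -0.54, limma FDR 0.000186, 0.000203 and 0.00252), where 8.38% of all genes tested fell. The median log2 fold change of the 6 was -0.63. Their summed level was 697 to 718 FPKM in Ctrl and 489 to 497 FPKM in MIR21-KO. The part of cycling in the changes of the 38 genes was not tested, and in bulk RNA fewer cycling cells and less mRNA per cell cannot be told apart. Of the 5 epithelial markers, CDH1 was the 1 called and fell by 1.48 on the log2 scale (limma FDR 0.000175). KRT18, EPCAM and KRT8 had log2 fold changes of -0.69, -0.68 and -0.23 (limma FDR 0.0153, 0.273 and 0.207). KRT19 went the other way, from a mean of 88.3 FPKM in Ctrl to 109 FPKM in MIR21-KO (0.29, limma FDR 0.206). The summed level of the 5 markers, most of it KRT8 and KRT18, was 1194 to 1288 FPKM in Ctrl and 776 to 1106 FPKM in MIR21-KO. The summed levels of the fibroblast, leukocyte and endothelial markers stayed at or under 7.10 FPKM in every library.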

How the data were processed

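PolyA RNA-seq data of 6 libraries (3 Ctrl, 3 MIR21-KO) were analysed, with groups and replicate numbers taken from the sample titles. The authors deposited a table of 58174 genes with gene length and FPKM per library, and 3 further columns of their own comparison (log2 fold change, p-value and FDR), which were not used. The submitters' processing notes name cutadapt 1.14, HISAT2 2.1.0, SAMtools 1.5, featureCounts 1.5.3, edgeR 3.18.1 and the build hg38, without roles. The annotation release and the treatment of strand and shared reads are not given in the sources used here. FPKM times length were whole multiples of 1 read for 100% of values (within 0.01 of a read), which gave 10631667 to 14345209 reads per library. No pair of libraries was a copy of another (chi-square per degree of freedom at least 2.58). The labels name no batch.

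The 16006 genes averaging 0.5 FPKM or more were fitted on the log2(FPKM + 0.1) scale in limma 3.58.1 (R 4.3.3) without covariates, and eBayes was run with a trend of variance on level and with robust fitting. Two-sided p-values were adjusted after Benjamini and Hochberg over these genes, and a gene was called where its FDR was under 0.01. The added 0.1 understates changes of low genes. The procedure was also run on simulated counts with the same variation beyond counting noise for every gene and library. That run does not bear on how stable the calls are in the deposited data. Gene positions and overlaps were from GENCODE 29 (GRCh38), which matched 57836 identifiers (99.4%), and promoters and miRNAs from RefSeq. For 30 of the 38 genes the deposited length equalled the GENCODE exon length.

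The 38 genes and all lists were chosen with earlier results of these data known. Values of every library are given for the 8 largest changes among called genes, for the called gene with the smallest p in each role without one of these, and for the most abundant gene. A gene of the partner list that the rule also named is not reported here. Of partners and end joining genes the 3 with the smallest p were named. Alternatives were other filters, pseudocounts, scalings and thresholds, each library left out, a replicate block, a plainer limma fit, voom on recovered reads, removal of GC and length trends (lowess), and a narrower E2F motif. Plots were made in Python 3.11.15 (matplotlib 3.10.9).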

Additional observations from a re-analysis of the deposited data

How the results depend on the processing

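The median log2 fold change of the 38 genes stayed negative under all alternatives, whereas the number called varied. The count of genes that fell, 12 with all libraries, was 1 to 17 when a library was left out, 6 with no filter on low values, 7 without trend or robust fitting and 20 at an FDR under 0.05, where MUS81 was the 1 gene that rose. Of all genes tested, 3.1%, 5.61% and 16.8% fell in these last 3 settings, against 8.38% in the reported fit. The share of all genes tested that fell was 2.3% to 11.3% with a library left out, 11.5% with voom and 13.4% with trends removed. The partners that fell, 10 with all libraries, numbered 3 to 15 with a library left out, 21 at an FDR under 0.05 (with 1 that rose), 17 with voom on recovered reads and 19 with GC and length trends removed (with 2 that rose). Without MIR21-KO replicate 3, 2 partners rose, and 0 in the other fits that left a library out. Of all genes tested, 9.99% rose without MIR21-KO replicate 3, 15.2% at an FDR under 0.05 and 11.4% with trends removed. End joining genes that fell, 4 with all libraries, numbered 0 to 7 with a library left out, 2 with no filter, 2 without trend or robust fitting, 9 at an FDR under 0.05, 7 with voom and 2 with trends removed together with the replicate block, and 1 rose with trends removed alone. The median log2 fold change of the 38 genes was -0.60 over the 17 genes with at least 5 FPKM and -0.35 with a pseudocount of 1. With the E2F letters restricted to TTTGGCGC and TTTCGCGC, 1 gene (FANCC), none of the called genes, held the motif (2.86% of genes with a promoter entry, against 2.46% of genes tested). Of 663 values for single genes under an alternative, 548 kept their direction and side of the threshold, 78 lost a call, 27 gained a call and 10 changed sign, all in genes that were not called. With a library left out, ATM ranged from -0.14 to 0.26, CHEK2 from -0.13 to 0.015, RAD50 from -0.19 to 0.21 and FANCL from -0.082 to 0.016. RAD50 was -0.018 with total-read scaling and -0.010 with voom, and FANCL was 0.10 with trends removed, with and without the block. Scaling moved the median of all genes by at most 0.035. The causes of these shifts were not tested.

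With a replicate block 0 of the 38 genes, 2 partners and 0 end joining genes fell, where 1.7% of all genes tested fell, with fold changes as before. The replicate numbers share no stated batch, and the correlations of same-numbered libraries' deviations from their group means were -0.171, -0.018 and -0.017, which gives no pairing by number. With trends removed, 17 of the 38 genes fell without the block and 8 with it, where 13.4% and 5.83% of all genes tested fell.

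RAD54B had the fewest reads of the 38 genes, 33 to 77 per library.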
